A study of Danio rerio with 4 samples.

Results

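Chromosome 18 of the zebrafish carried 1787 of the 37625 CTCF peaks that were called in whole embryos at 24 hpf (hours post fertilisation), and 346 of them lay in a dense stretch between 28 and 33 Mb. The members are all peaks of the deposited list whose chromosome is 18, in danRer10 coordinates. The stretch was picked by its high peak count, so its density and spacing are descriptions here. The embryos were of the AB strain and came from parents that carried a tagged ctcf allele, named ctcf{HPSH} in the labels, beside a wild-type allele. Chromatin was precipitated through the HA tag in 2 ChIP libraries of 2000 embryos each, batches of embryos having been combined before lysis, and 2 libraries of input DNA from the same replicates, with no antibody, were the controls. Whole embryos mix all cell types, and the antibody is directed at the tag and not at untagged CTCF. No ChIP of untagged embryos was among the samples, so the antibody's specificity was not tested here.

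CTCF uses its zinc fingers to bind a long DNA motif and, in vertebrates, stops cohesin as the latter extrudes chromatin loops. Its sites mark many boundaries between chromatin domains. In mammals, arrays of neighbouring CTCF sites are known from clusters of related genes such as the protocadherins.

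The peaks were called on the combined replicates and the list gives no value for a single library, so no spread between replicates can be given and no difference below was tested. Read depth is unknown. Intervals are exact 95% intervals of peak counts (Poisson for a density, binomial for a ratio of densities) or order-statistic intervals of a median. They treat neighbouring peaks as independent and cover counting error only. An interval of a ratio or difference of medians carries the error of the stretch's median alone, with the other median taken as fixed. The score of a peak is the authors' own, on a scale that is not stated, and is used for ranks and medians within the list.

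Chromosome 18 was dense in peaks for its length. It held 35.04 peaks per Mb (95% interval 33.4 to 36.7) over a span of 51.0 Mb, counted up to the end of the last peak. The other 24 chromosomes held 27.7 ± 4.99 per Mb (SD over chromosomes), and 2 of them were denser. Its median whole 1 Mb bin held 30 peaks, against a mean of 23.2 for the medians of the other chromosomes. Of its 51 whole bins, 9 held at least 50 peaks (17.6%), where 9.41% of such bins on all 25 chromosomes did. Without the stretch the chromosome held 31.3 peaks per Mb, and 4 other chromosomes were denser than that.

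Peaks reached almost all of the chromosome. Of its 510 whole bins of 100 kb, 47 held no peak, or 9.22%, where 18.2% of such bins on all 25 chromosomes were empty. Each of the other 24 chromosomes had a larger share of empty bins, the nearest being chromosome 16, also at 9.22% to the digits given. Leaving out the stretch gave 10.2%, and 2 other chromosomes then had a smaller share. The 5 longest intervals between neighbouring peak centres measured 519, 480, 369, 314 and 291 kb. The longest ran from 13397509 to 13915883, between the facing edges of its peaks, and the next from 42607873 to 43087778. The sparsest whole 1 Mb bins were at 13000001 to 14000000 and at 43000001 to 44000000, with 12 peaks each.

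**Figure D1:**
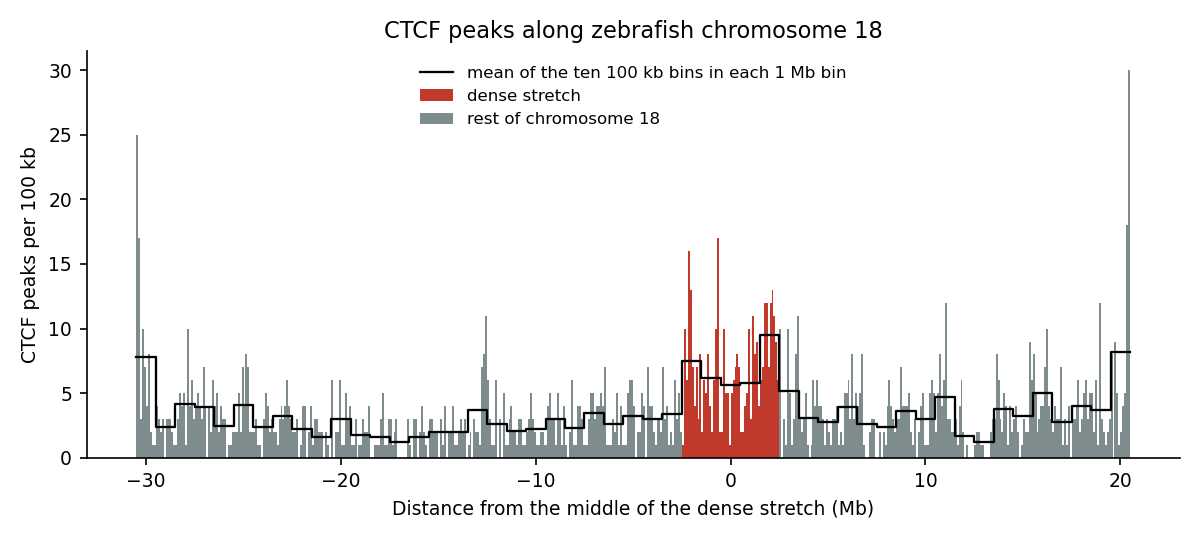
CTCF peaks per 100 kb bin along chromosome 18 (bars), against the distance in Mb from the middle of the dense stretch, with the mean of each 1 Mb bin as a black line and the stretch in red. The red block stands above its surroundings with no empty bin, and the tallest bars, of 30 and 25 peaks, stand at the chromosome's ends.

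The 5 densest bins of 1 Mb were shared between the stretch and the ends. The bin from 32000001 to 33000000 held 95 peaks, the last whole bin (50000001 to 51000000) held 82 and the first held 78. The bins from 28000001 to 29000000 and from 29000001 to 30000000 followed with 75 and 62. In bins of 100 kb the order was different, because the ends were more sharply peaked. The bin from 50900001 to 51000000 held 30 peaks, the first 100 kb held 25, and the neighbours of these end bins held 18 and 17. The densest bin of the stretch, from 29800001 to 29900000, also held 17.

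The ends of chromosome 18 stood out less from the rest than those of other chromosomes. The outer 2 Mb at each end together held 221 peaks, or 55.25 per Mb (interval 48.2 to 63.0), against 61.7 ± 9.62 per Mb at the ends of the other 24 (SD over chromosomes). The ratio of ends to the remaining chromosome was 1.66 (interval 1.43 to 1.91), below all 24 others, whose ratios ran from 1.98 to 5.48. The dense stretch is part of that remaining sequence. Without it the ratio was 1.90 (1.64 to 2.2), which was still below the other 24. The sequence between the ends, without the stretch, held 29.0 peaks per Mb, more than 20 of the other chromosomes held between their ends. The left end held 51 peaks per Mb and the right end 59.5.

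Peaks of the right end had a median score of 417 (interval 346 to 481) and those of the left end 363 (321 to 430), with overlapping intervals. The right end also had more peaks within 2 kb of another, 57 of 119 (47.9%), against 33 of 102 (32.4%) on the left. On all 25 chromosomes 23.0% of peaks had such a neighbour, and within 2 Mb of the ends of the other chromosomes 31.8% did. The tightest run of 10 peaks anywhere on the chromosome lay in the right end, from 50933889 to 50943244, with 8996 bp between its first and last centres. Its scores ran from 251 to 560 and its widths from 247 to 560 bp.

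The stretch between 28 and 33 Mb held 69.2 peaks per Mb (interval 62.1 to 76.9). Between the stretch and the ends, the rest of the chromosome held 29.0 per Mb (27.4 to 30.7), so the stretch was 2.38 times as dense (2.11 to 2.69). Against the rest with its ends included the ratio was 2.21 (1.96 to 2.49). Density in the stretch was also above that of the chromosome's own ends of 2 Mb each, by a ratio of 1.25 (1.05 to 1.49). This margin was smaller with adjoining peaks merged. The order did not hold among higher-scoring peaks or with shorter ends. With peaks within 500 bp merged, the stretch held 53.4 per Mb and the ends 50.25. Among the highest-scoring 18270 peaks of all chromosomes they held 28.6 and 28.75, and among the highest-scoring 9135 the ends were the denser, with 17.25 against 12.4. With 1 Mb taken at each end and all peaks kept, the ends held 80.5 per Mb, above the 69.2 of the stretch. The stretch covered 9.8% of the chromosome's length and held 19.4% of its peaks.

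Inside the stretch the density was uneven and was highest at its borders. Its 5 bins of 1 Mb held 75, 62, 56, 58 and 95 peaks from left to right. In bins of 0.5 Mb, the left border was a step, from 17 peaks at 27500001 to 28000000 to 46 peaks in the next bin. The lowest such bins, with 23 peaks each, were at 30000001 to 30500000 and 31000001 to 31500000. At the right border 51 peaks from 32500001 to 33000000 were followed by 24 and 28 in the next bins, and by 14 from 34000001. The dense sequence thus ended more gradually on the right than at the 33 Mb bound, which follows whole megabases.

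The peaks nearest the bounds were narrow. The last peak outside on the left (27941631 to 27941853) scored 204 and the first inside (28032176 to 28032396) scored 307. The last inside on the right (32962473 to 32962693) scored 221 and the first outside (33001144 to 33001359) scored 407. All 4 were between 216 and 223 bp wide, below the lower quartiles of width in the stretch (241 bp) and in the rest without the ends (226 bp).

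Every one of the 50 bins of 100 kb in the stretch held a peak, with a median of 6.5 (quartiles 4 and 9.75, range 1 to 17). The 420 bins between the stretch and the ends had a median of 3 (quartiles 1 and 4, range 0 to 12), and 45 of them were empty. Bins with at least 5 peaks made up 36 of 50 (72%) in the stretch and 82 of 420 (19.5%) in that rest, and 18.8% on all 25 chromosomes. The longest interval between centres in the stretch was 93.7 kb, from 30411521 to 30504949. In 247 consecutive 5 Mb stretches of the other chromosomes the longest interval had a median of 291 kb, and 1 stretch had a shorter one, of 91.5 kb. Those stretches followed a fixed grid, whereas the stretch on chromosome 18 was picked by its count. The stretch was part of a run of 69 adjacent bins without an empty one, from 26200001 to 33100000. The longest such run on the 25 chromosomes, of 71 bins, was on chromosome 16.

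Neighbours in the stretch lay close together. The median distance between centres was 6760 bp (interval 5367 to 9468, 345 distances), against 19986 bp (17982 to 21976, 1218 distances) in the rest without the ends. The ends had a median of 7663 bp (4461 to 10018), within the interval of the stretch. Against the rest with its ends, the ratio of medians was 0.395 (interval 0.313 to 0.553). It was 0.660 (0.512 to 0.784) with peaks within 500 bp merged and 0.728 (0.477 to 0.952) among the highest-scoring 18270 peaks. Among the highest-scoring 9135 it was 0.813, with an interval of 0.509 to 1.24 that includes equal spacing. All of these intervals of the ratio leave out the error of the rest's median. Where the stretch and the ends parted was at the shortest distances. In the stretch 20.6% of distances were under 1 kb and 34.5% under 2 kb. The ends had 14.2% and 26%, and the rest had 6.49% and 11.9%. Between 2 and 5 kb the order of stretch and ends turned, with 9.0% of distances in the stretch and 18.7% at the ends. At the other extreme, no distance in the stretch exceeded 100 kb, where 6.49% did in the rest.

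**Figure D2:**
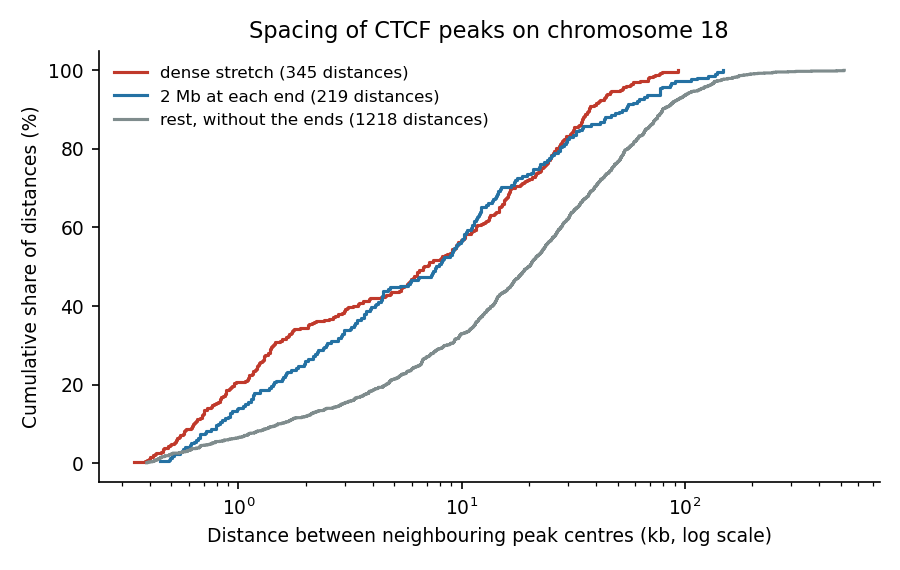
Cumulative share of the distances between neighbouring peak centres (kb, log scale) in the dense stretch, in the outer 2 Mb at each end and in the rest of chromosome 18. The curve of the stretch rises first, with 34.5% of distances under 2 kb, meets that of the ends near 5 kb, and both lie above the curve of the rest from 1 kb on.

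Most of the difference in density lay in peaks with another within 2 kb, a class that grows with density itself. In the stretch 186 of 346 peaks (53.8%) had another peak within 2 kb, and in the rest without the ends 260 of 1220 (21.3%) did. Per Mb these were 37.2 and 6.19 peaks, a ratio of 6.01 (interval 4.95 to 7.28). Peaks with no neighbour within 2 kb were 32 and 22.9 per Mb, a ratio of 1.40 (1.18 to 1.66). Peaks more than 10 kb from any other were about as frequent in both, at 13.4 and 13.3 per Mb, a ratio of 1.01 (0.772 to 1.30). How many peaks lie close to or far from others depends on the density, by which the stretch was picked. These ratios are thus not independent of that choice or of each other. The ratios under random placement at these densities were not computed.

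The close peaks often formed groups of more than a pair. Chaining neighbours at 2 kb or less gave 67 groups in the stretch, of which 38 were pairs and 29 had at least 3 peaks, up to 7. Groups of at least 3 held 31.8% of the peaks of the stretch, 5.33% of those in the rest without the ends, 20.4% at the ends of chromosome 18 and 6.53% on the other chromosomes. Counting each group as 1 site, the stretch had 45.4 sites per Mb and the rest 25.6, a ratio of 1.77 (interval 1.53 to 2.05). Chaining at 10 kb gave 30 and 19.5 per Mb, a ratio of 1.54 (1.28 to 1.83).

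Some of the close peaks were nearly adjoining. Joining peaks whose edges lay within 500 bp removed 79 of 346 in the stretch (22.8%), against 6.59% in the rest of the chromosome and 6.23% on the other chromosomes. The ratio of density to the rest with its ends was then 1.83 (1.59 to 2.08) instead of 2.21. Whether such neighbours are separate sites or 1 bound region called in pieces was not tested.

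The tightest run of 10 peaks in the stretch shows this arrangement. It lay from 28322040 to 28338083, with 15.3 kb between its outer centres. In order along the chromosome the peaks scored 265, 418, 408, 129, 617, 280, 280, 123, 241 and 253. Their widths were 607, 411, 497, 484, 302, 216, 471, 264, 266 and 903 bp. The highest score of the run belonged to a peak of 302 bp in its middle (28327956 to 28328257), and the widest peak, the last of the run, scored 253. The 100 kb bin that holds the run, from 28300001 to 28400000, had 16 peaks, 13 of them with a neighbour within 2 kb, and a median width of 463.5 bp.

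Peaks in the stretch were wide. Their median width was 308.5 bp (interval 290 to 341, quartiles 241 and 505), against 263 bp (257 to 269, quartiles 226 and 343) in the rest without the ends and 273 bp at the ends. In 61.8% of pairs of 1 peak from the stretch and 1 from that rest, the peak of the stretch was the wider. Peaks wider than 500 bp were 88 of 346 (25.4%) in the stretch and 153 of 1220 (12.5%) in the rest, and 12.0% on all 25 chromosomes. Per Mb they were 17.6 and 3.64, a ratio of 4.83 (3.67 to 6.32). For peaks of at most 500 bp the ratio was 2.03 (1.77 to 2.33). Both ratios carry the density by which the stretch was picked, which the percentages do not. With greater widths and numbers together, peaks covered 3.08% of the stretch, 0.975% of the rest and 1.99% of the ends.

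The lower bound of width was 200 bp in the stretch, in the rest and at the ends, and the lower quartiles were close. The difference lay in the upper part of the distribution. It was also larger among peaks with a close neighbour. Those within 2 kb of another had a median width of 371.5 bp in the stretch and 265.5 bp in the rest without the ends. Those with no such neighbour had 275 and 262 bp, and those more than 10 kb from any other had 262 and 260 bp. Among peaks with no neighbour within 2 kb, 29 of 160 (18.1%) in the stretch and 115 of 960 (12.0%) in the rest were wider than 500 bp. More than 10 kb from any other, 9 of 67 (13.4%) and 61 of 557 (11.0%) were. At the ends of chromosome 18 these shares were 20 of 131 (15.3%) and 15 of 59 (25.4%). Among the most isolated peaks the ends thus had a larger share of wide ones than the stretch. Of the 88 peaks wider than 500 bp in the stretch, 59 had another within 2 kb (67.0%), against 38 of 153 (24.8%) in the rest.

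The 5 widest peaks of chromosome 18 lay in or near the stretch. The widest spanned 3582 bp (25375227 to 25378808) with a score of 541, and the next spanned 2263 bp (26337174 to 26339436) with a score of 552. The other 3 were inside the stretch. They measured 2096 bp (28155022 to 28157117, score 459), 1954 bp (28847305 to 28849258, score 422) and 1939 bp (32881739 to 32883677, score 566). None of the 5 was among the 5 highest-scoring peaks of the chromosome.

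Peaks in the stretch scored low for the chromosome. The median score was 343.5 (interval 322 to 356), against 383 (371 to 394) in the rest without the ends and 387 (348 to 435) at the ends. A peak of the stretch had the higher score in 42.9% of pairs with that rest. The upper part of the distribution differed most, with 90th percentiles of 602.5 in the stretch, 784 in the rest and 948 at the ends. The lowest score in the stretch was 119 and the highest 1075. Against the rest with its ends, the median score differed by -39.5 (interval -61 to -27). With peaks within 500 bp merged, each given its highest score, the difference was -28 (-42 to 1), an interval that includes equal scores. The low median was not particular to the stretch. Of 38 other 5 Mb stretches of chromosome 18 that did not overlap it, 2 had a lower median score, down to 339. From 20 to 28 Mb the median was 354.5 (321 to 382), and from 33 to 41 Mb 384 (346 to 401). Both intervals overlap that of the stretch.

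Strong peaks were not found to be denser in the stretch. Among the highest-scoring 10.0% of peaks on all chromosomes, those with a score of at least 750, were 11 of 346 in the stretch (3.18%), 145 of 1220 in the rest without the ends (11.9%) and 34 of 221 at the ends (15.4%). Per Mb these were 2.2 (interval 1.1 to 3.94), 3.45 and 8.5. The ratio of stretch to rest was 0.637, with an interval of 0.311 to 1.17 that includes equal density.

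The excess of peaks in the stretch was smaller among high-scoring peaks. When the peaks of all chromosomes were divided into 4 classes of near-equal size by score, the lowest class reached up to 274 and the next ones up to 368 and 532. The ratio of stretch to rest without the ends was 2.88 (2.26 to 3.64) in the lowest class, 3.09 (2.45 to 3.88) in the next, 2.15 (1.66 to 2.75) in the one above and 1.57 (1.18 to 2.06) in the highest. The intervals of the lower pair of classes do not overlap that of the highest. They treat peaks as independent, though many in the stretch are grouped, so this is no test of a difference. The ends had 12.5, 14, 11.5 and 17.25 peaks per Mb in the same order of classes, so there the highest class was the most frequent.

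**Figure D3:**
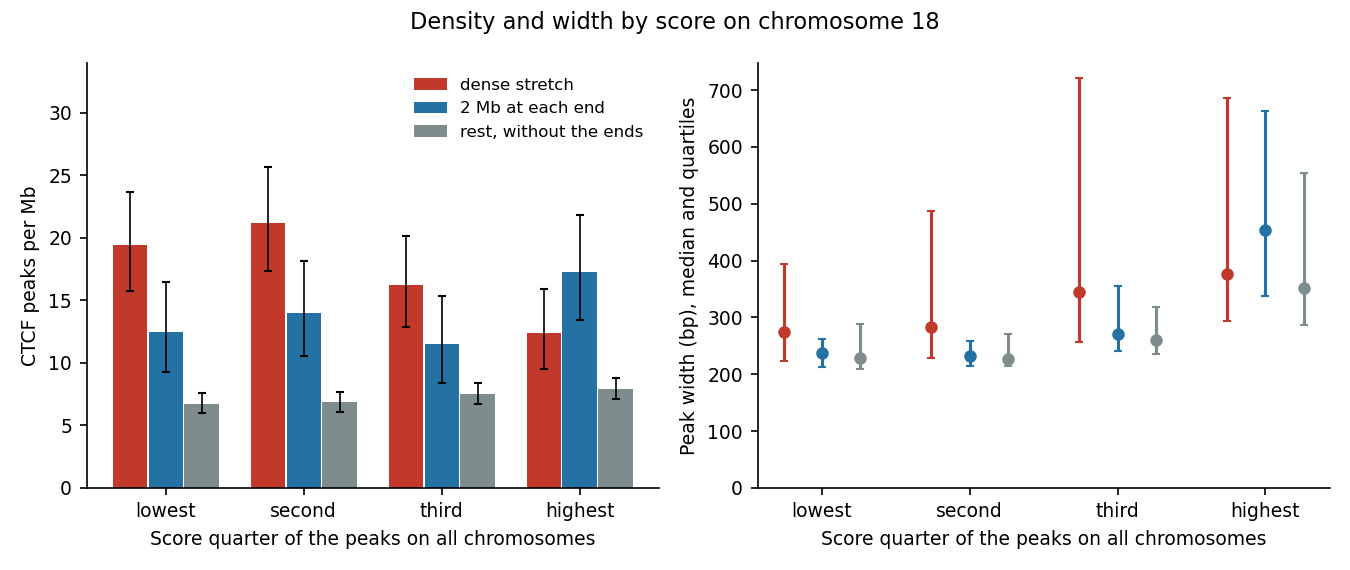
Left, CTCF peaks per Mb in each score class, with exact 95% Poisson intervals, and right, median peak width with quartiles, in the dense stretch, the outer 2 Mb at each end and the rest of chromosome 18 without the ends. The stretch is the densest in the lower 3 classes, with 19.4, 21.2 and 16.2 peaks per Mb, while the ends are above it in the highest class, with 17.25 against 12.4.

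Width and score were less tied in the stretch. Across its 346 peaks Spearman's rho of width and score was 0.348, against 0.537 across the rest without the ends and 0.660 at the ends (peaks are not replicates, and these are descriptions). In each of the 4 score classes the median width was greater in the stretch than in the rest without the ends. In the lowest score class the median width was 274 bp in the stretch and 229 bp in the rest, and in the class with scores up to 532 it was 345 and 260 bp. In the highest class it was 376 and 352.5 bp, and the ends were above both with 454 bp. At scores of at least 750 the order turned, with 347 bp over 11 peaks of the stretch and 423 bp over 145 of the rest, and 18.2% and 41.4% of them were wider than 500 bp. In the same class up to 532, 35.8% of peaks in the stretch and 9.78% in the rest were wider than 500 bp.

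The highest-scoring peaks of chromosome 18 lay outside the stretch. They scored 2228 (49584433 to 49586278), 2200 (50710485 to 50711579), 1931 (3976811 to 3977648), 1905 (604183 to 605164) and 1850 (47441249 to 47442141). The first of them ranked 37 among the peaks of all chromosomes. These peaks were between 838 and 1846 bp wide, and 3 of the 5 lay within 2 Mb of an end. The strongest peak of the stretch (29866202 to 29866675, summit at 29866385) scored 1075 and ranked 51 on the chromosome. The next 4 of the stretch scored 1021 (30366416 to 30366762), 977 (31322799 to 31323169), 968 (30052802 to 30053063) and 947 (30555294 to 30555650). All 5 were at most 474 bp wide.

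Of these 5 strong peaks 3 lay in the middle bin of the stretch, the one with the fewest peaks. The bin from 30000001 to 31000000 held 56 peaks with a median score of 446, and 7 of its peaks (12.5%) scored at least 750. The bin from 28000001 to 29000000 held 75 peaks with a median score of 297, a median width of 391 bp and 72.0% of peaks within 2 kb of another. The bin from 32000001 to 33000000 held 95 peaks with a median score of 345, a median width of 322 bp and 68.4% with such a neighbour, and none of its peaks scored 750 or more. The remaining bins had median scores of 321.5 and 343.5. Both border bins thus had the widest and most closely spaced peaks of the stretch, and the left one the lowest scores. The bin just beyond the stretch, from 33000001 to 34000000, held 52 peaks, 53.8% of them with a neighbour within 2 kb, a median width of 281 bp and a median score of 338.5.

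**Figure D4:**
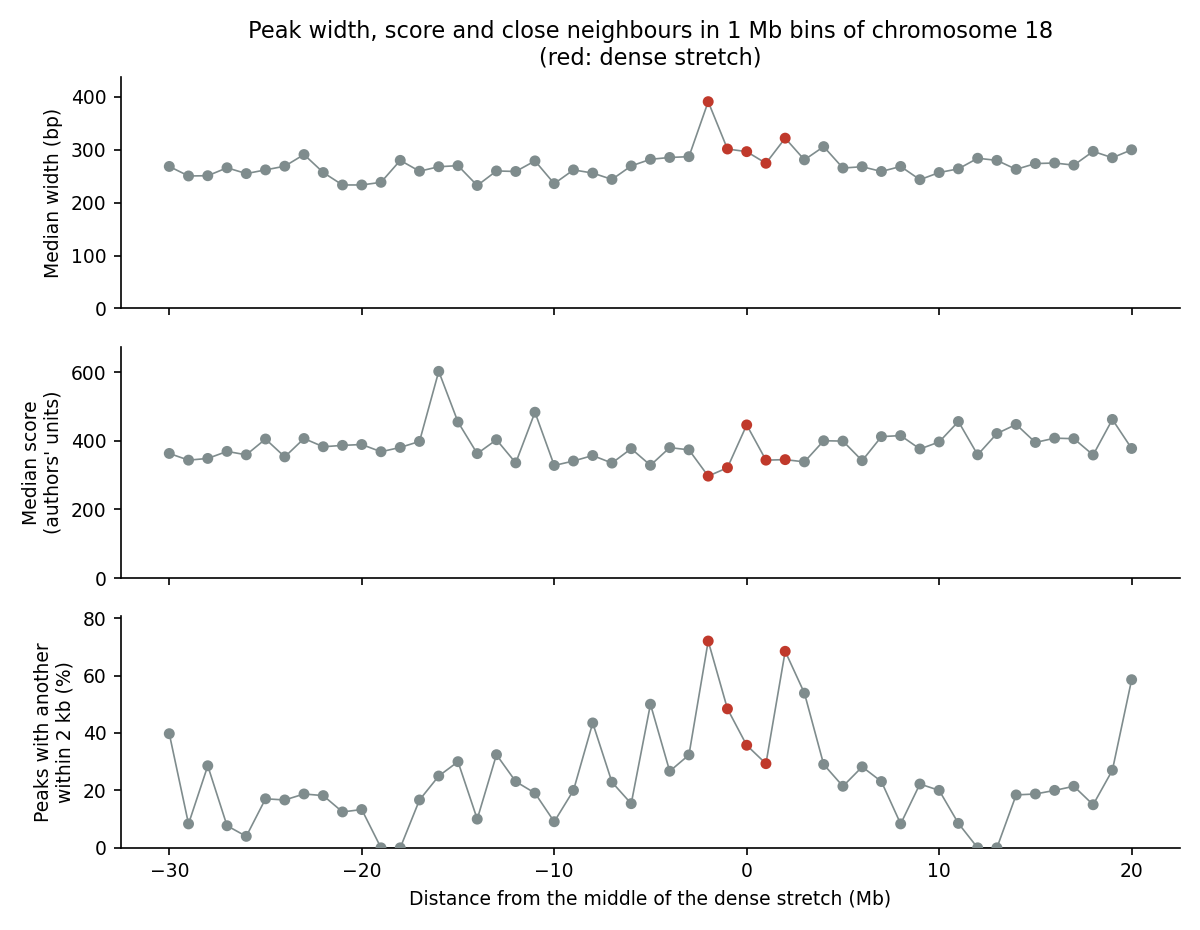
Median peak width (bp), median score (authors' units) and percentage of peaks with another within 2 kb in each whole 1 Mb bin of chromosome 18, against the distance in Mb from the middle of the dense stretch, whose bins are red. Width and close neighbours are highest in the first bin of the stretch (391 bp and 72.0%), and the score is highest in its middle bin among the bins of the stretch (446).

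Summits lay near the middle of the peaks in the stretch as in the rest. The summit lay at a median of 49.6% of the width from the peak's start (quartiles 40.6% and 60.0%), against 49.3% (42.6% and 56.5%) in the rest without the ends. The quartiles were wider apart in the stretch.

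Set against other chromosomes, the stretch was among the densest sequences of its length. The stretch was picked by its count, while the stretches set beside it followed a fixed grid from the first base. On that grid chromosome 18 had 46.6 peaks per Mb from 25000001 to 30000000 and 58.4 from 30000001 to 35000000. Among 1181 overlapping stretches that started every 1 Mb on the other chromosomes, 1 was denser than the stretch. Of 247 consecutive 5 Mb stretches on the other 24 chromosomes, 1 held more peaks, the first 5 Mb of chromosome 22 with 442. After merging within 500 bp 6 held more, and 12 did among the highest-scoring 18270 peaks and 25 among the highest-scoring 9135. The median of the 247 was 23.4 peaks per Mb (quartiles 17.4 and 31.2). Of the 175 stretches more than 5 Mb from both ends of their chromosome, the densest held 45.2 peaks per Mb. The stretch on chromosome 18 lies 18 Mb from the nearer end.

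Stretches of like density on other chromosomes held other kinds of peaks, but all of them lay near chromosome ends. The other chromosomes had 13 consecutive stretches with at least 50 peaks per Mb, none of them more than 5 Mb from both ends. Scores near ends were higher in general, with a median of 406 within 2 Mb of the ends of the other chromosomes and 368 over all their peaks. The median scores of the 13 ran from 355 to 431, all above 343.5, and their median widths from 264 to 300 bp, all below 308.5 bp. Peaks within 2 kb of another made up 22.3% to 33.8% of theirs, against 53.8% on chromosome 18, and peaks scoring at least 750 made up 8.20% to 20.3%, against 3.18%. The densest of them, on chromosome 22, had nearly the same median spacing, 6740 bp, but 30.8% of its peaks had a neighbour within 2 kb and its median score was 408. These values are a description of 1 stretch beside 13 and were not tested.

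**Figure D5:**
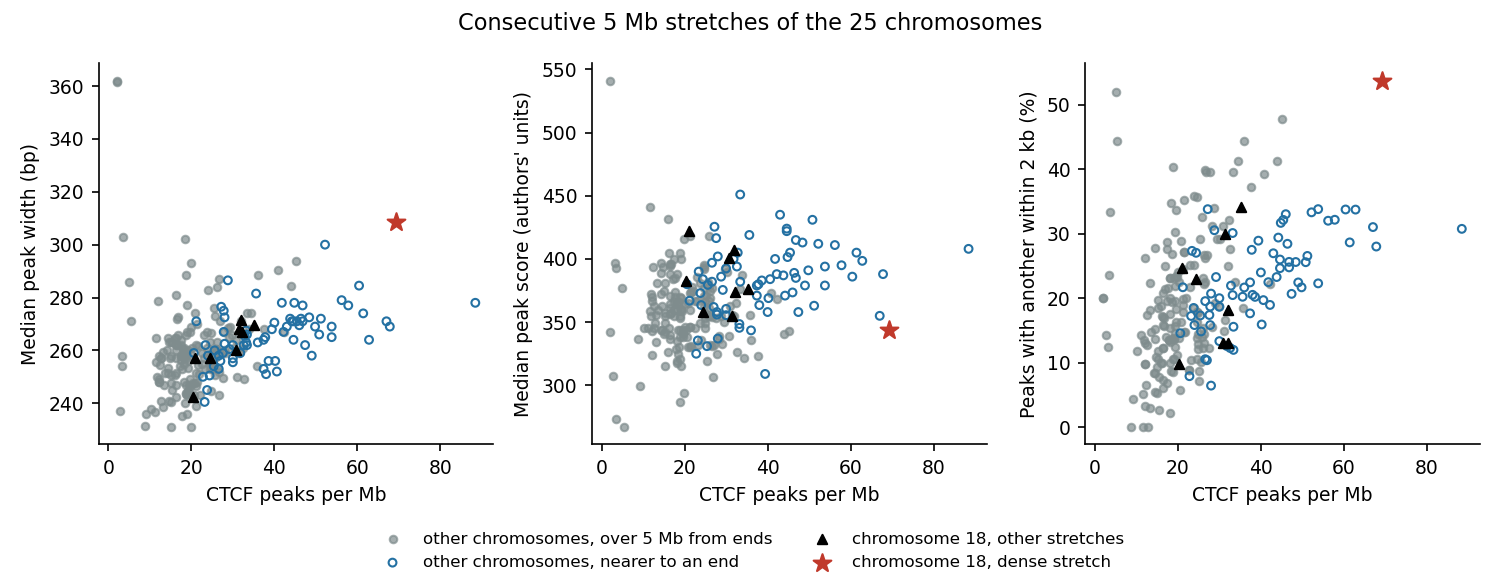
Median peak width (bp), median score (authors' units) and percentage of peaks with another within 2 kb, against peaks per Mb, for consecutive 5 Mb stretches of the other chromosomes (grey, more than 5 Mb from both ends; blue circles, nearer to an end) and of chromosome 18 (black triangles, and a red star for the dense stretch). Stretches of chromosome 18 were placed to include the dense stretch, and those of the other chromosomes start from the first base. The star lies beside the dense end stretches in density, and above them in width and close neighbours but below them in score; the widest medians at very low density rest on 10 peaks each.

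Among all 247 stretches, 2 had a greater median width, both on the sparse long arm of chromosome 4 with 10 peaks each, and none had a larger share of peaks within 2 kb of another. Among the 1181 overlapping stretches that started every 1 Mb, 12 had a greater median width and 3 a larger share of such peaks. The share of peaks scoring at least 750 was lower in 11 of the 247. The median score itself was not extreme, since 56 of the 247 had a lower one.

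A like mixture of peaks occurred in some other dense interior stretches, at lower density. The densest 5 Mb more than 5 Mb from both ends was taken on each chromosome, in steps of 1 Mb. That of chromosome 16 (14000001 to 19000000) held 46.2 peaks per Mb, with a median score of 343, a median width of 308 bp and 49.8% of peaks within 2 kb of another. That of chromosome 1 (25000001 to 30000000) held 44 per Mb, with 340.5, 284.5 bp and 41.4%. That of chromosome 22 (10000001 to 15000000) held 42.2 per Mb with fewer close neighbours, 22.3%, and a median score of 368. Over the 24 other chromosomes these stretches had a density of 34.4 ± 5.57 per Mb, a width of 269 ± 12.6 bp and 28.4 ± 10.6% of peaks with a close neighbour (SD over chromosomes). Chromosome 18 was above all 24 in each of the 3 measures, narrowly so over chromosome 16 in width. In the share of peaks wider than 500 bp the stretch of chromosome 16 was slightly higher, at 25.54% against 25.43%. Peaks scoring at least 750 made up 3.18% in the stretch of chromosome 1 and 3.02% in that of chromosome 14, against 3.18% on chromosome 18. Over the 24 this share was 8.41 ± 3.21%, with 23 above chromosome 18 and 1 below. In 18 of the 24, as on chromosome 18, peaks of the densest interior stretch had the higher score in fewer than 50% of pairs with the rest of their chromosome.

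Chromosome 18 had its dense interior bins in the stretch and beside it. With 5 bins left out at each end, 6 of its 41 bins of 1 Mb held at least 50 peaks (14.6%), where 3.25% of such bins on all 25 chromosomes did. The other chromosomes had at most 4 each. All 6 were adjacent, from 28000001 to 34000000, so they are 1 region and not 6 separate ones. They are the bins of the stretch and the next bin to its right, so their number largely restates how the stretch was picked.

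Over the whole chromosome, the stretch moved some of its summaries. With it, chromosome 18 had the greatest median width (270 bp), the largest share of peaks wider than 500 bp (15.5%) and the largest share within 2 kb of another (30%) of all 25 chromosomes. Without it these were 264 bp, 13.1% and 24.3%, and 7, 2 and 3 of the other chromosomes were higher. The median score moved the other way, from 372 with the stretch, below 8 other chromosomes, to 383 without it, below 3. The share of peaks scoring at least 750 was 10.6% with the stretch and 12.4% without it, and 1 other chromosome was then higher.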

How the data were processed

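CTCF ChIP-seq of zebrafish embryos was represented by 1 deposited peak list, called by the authors on combined replicates, per the file headers. Libraries were single-end with reads of 100 bp, from chromatin fixed in 1% formaldehyde for 15 min and sheared to 100 to 200 bp, per the labels' protocols. The submitters' processing notes name danRer10, Bowtie2 2.2.5 and MACS2, without their roles. The call threshold is not given in the sources used here, nor is the use of the input, and both bear on how many weak peaks are listed. The score is a whole number deposited by the authors on an unstated scale. Start, end and summit offset were used as deposited. Signal, p and q are 0 for every peak.

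Members and comparisons were chosen with earlier results of these data known. Peaks were placed by their centres, and bins started at the first base. Each chromosome was measured up to its last peak with assembly gaps included, which lowers a density where there are any. The whole list has 37625 peaks, of which 1085 on unplaced scaffolds were not used. Named peaks and bins were the 5 highest-scoring, widest or densest, the 5 longest intervals and the tightest 10 peaks. Other peaks, bins and stretches named were chosen after their values were seen. No danRer10 sequence or annotation was used, so no sequence, gene or repeat is given. Alternatives were the higher-scoring peaks, merging within 500 bp, and other bounds. Python 3.11.15, numpy 2.4.6, scipy 1.17.1, pandas 2.3.3 and matplotlib 3.10.9 were used. The computations were tested on simulated peaks placed independently of each other. The real peaks are grouped, and the intervals were not tested for such data.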

Additional observations from a re-analysis of the deposited data

How the results depend on the processing

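Of 37 alternatives over 7 results, none turned a direction and 19 stayed within the interval of the reported value. That interval was of peak counts for the density ratios and of the stretch's median alone for distance, width and score. For the rank it came from the Poisson bounds of the stretch's count. For the variance over the mean it was the SD over the other chromosomes on either side. The 19 thus rest on unlike intervals. The 7 results did not include the density of the stretch against the ends, or width among peaks scoring at least 750. In both of these the order turned at higher scores, as given above. The order of stretch and ends also turned with 1 Mb taken at each end. Over all peaks the variance over the mean in 1 Mb bins of chromosome 18 was 9.48, with 12 other chromosomes above it and 12 below. Among the highest-scoring 18270 peaks the density ratio of the stretch to the rest of chromosome 18 was 1.72. For the same peaks 95.1% of other 5 Mb stretches held fewer, the ratio of median distances was 0.728 and the variance over the mean was 3.64. Among the highest-scoring 9135 these were 1.42, 88.7%, 0.813 and 2.51, the widths differed by 8 bp instead of 44.5 bp, and the ratio of ends to rest was 2.05. The width difference of 8 bp had an interval of -52 to 225 bp, which includes equal widths. Merging within 500 bp gave a density ratio of 1.83, a rank above 97.6% of stretches (99.6% as reported) and a distance ratio of 0.660 (0.395 as reported). Moving both bounds of the stretch inward by 0.5 Mb gave a density ratio of 1.90. Stretches starting every 1 Mb ranked below it in 99.9% and those far from ends in 100% of cases. Taking 1 Mb or 5 Mb at each end gave ratios of 2.43 and 1.36. A lower density ratio at higher scores follows from the low scores in the stretch; the cause of the other shifts was not tested. No paired analysis was possible because the list was made from pooled libraries and its columns carry no replicate. Single replicates could not be left out for the same reason. Unknown depth and threshold limit what an absent peak means, and uncounted assembly gaps could lower any density.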
